A study of Homo sapiens with 12 samples.

Results

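The Notch receptors NOTCH1, NOTCH2, NOTCH3 and NOTCH4, their ligands JAG1, JAG2, DLL1 and DLL4, and the target genes HES1 and HEY1 were followed across 12 RNA libraries of 2 pancreatic ductal adenocarcinoma (PDAC) cell lines. The genes were found by their symbols, and each symbol matched 1 row, so that 10 of the 48114 genes in each table are described. PANC-1 cells had received a control siRNA (siCtrl), an siRNA against QKI (siQKI, 40 nM) or an siRNA against RBFOX2 (siRBFOX2, 40 nM), and polyA RNA was collected after 48 h. HPAF-II cells had received siCtrl and were also taken at 48 h. The labels give 3 replicates for each group and no dose for siCtrl. Each line came from a single tumor. QKI and RBFOX2 are RNA-binding proteins that regulate splicing, and the study asked what their silencing does in PANC-1 cells.

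Notch signaling passes between neighboring cells. A ligand of the Jagged or Delta-like family on one cell binds a Notch receptor on the next, the receptor is cut by an ADAM protease and by gamma-secretase, and the freed intracellular domain enters the nucleus, where it joins the DNA-binding protein RBPJ and Mastermind coactivators to switch on genes such as HES1 and HEY1. HES1 and HEY1 encode transcriptional repressors. In the pancreas, the pathway is known for holding progenitors undifferentiated during development and for becoming active again in acinar-to-ductal change and in PDAC.

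Both siRNAs lowered their own target. QKI was at 25909, 24539 and 26150.4 normalized counts in the siCtrl libraries, at 4629.7, 5453 and 5020.2 in siQKI and at 26742, 28333 and 28973 in siRBFOX2. RBFOX2 was at 15355, 15508 and 15424 in siCtrl, at 12629, 12778 and 12520.0 in siQKI and at 2403, 2171 and 1712 in siRBFOX2. QKI therefore fell 5.08-fold with siQKI (adjusted p = 9.15e-13, limma over all genes tested) and RBFOX2 fell 7.43-fold with siRBFOX2 (adjusted p = 4.7e-11). RBFOX2 was also lower with siQKI (log2 fold change -0.29 ± 0.09 (SE), adjusted p = 0.0207), a call that was lost in 6 of 17 alternatives, whereas QKI with siRBFOX2 did not pass the threshold (0.13 ± 0.06, adjusted p = 0.105). A normalized count is a gene's count divided by a factor for its library, so it allows a gene to be compared between libraries of the same table.

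Libraries of the same PANC-1 group had correlations of 0.965 to 0.973 across genes on the log2 scale, and HPAF-II libraries of 0.943 to 0.952. All 5 markers of ductal epithelium (KRT7, KRT8, KRT18, KRT19 and EPCAM) were detected in every group. Their summed level, in values rescaled to a total of 1000000 per library, was 2547 to 2640 in siCtrl, 2551 to 2706 in siQKI, 2129 to 2286 in siRBFOX2 and 10736 to 11688 in HPAF-II libraries. The 6 endothelial markers summed to 1.14 to 2.01, 0.715 to 1.03, 0.519 to 1.08 and 0.00798 to 0.0452 in these groups, mostly TIE1 in PANC-1, with KDR and TEK at 0 in every siCtrl library. Of 4 leukocyte markers, PTPRC and CD3E were at 0 in every siCtrl and siQKI library, and the sum, almost all CD68, was 145.0 to 169, 116 to 118, 126 to 134 and 77.0 to 106. The 5 markers of fibroblasts and pericytes, led by COL1A1 and with DCN at 0 in every PANC-1 library, summed to 12.8 to 14.1, 26.7 to 29.6, 16.2 to 24.0 and 19.8 to 24.6. The part of these shifts in the results on Notch genes was not tested, and in RNA from a whole culture fewer expressing cells cannot be told apart from less RNA per cell.

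Levels of the 10 genes were compared with each other only after division by the length of a representative transcript. In PANC-1 siCtrl cells, HES1 stood highest with 67.5 ± 3.3 (SD, n = 3) rescaled values per kb. NOTCH2 (4.77 ± 0.18), JAG1 (4.63 ± 0.15) and JAG2 (4.48 ± 0.11) followed as neighbors whose means lay within about 1 SD of the next. NOTCH1 was at 2.48 ± 0.07, HEY1 at 1.15 ± 0.14, NOTCH4 at 0.803 ± 0.076 and DLL4 at 0.653 ± 0.058. DLL1 (0.356 ± 0.073) and NOTCH3 (0.196 ± 0.025) were the lowest of the 10 genes. PANC-1 cells thus carried RNA of all 4 receptors, with NOTCH2 and NOTCH1 above the other receptors, and more Jagged than DLL1 or DLL4 RNA.

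**Figure D1:**
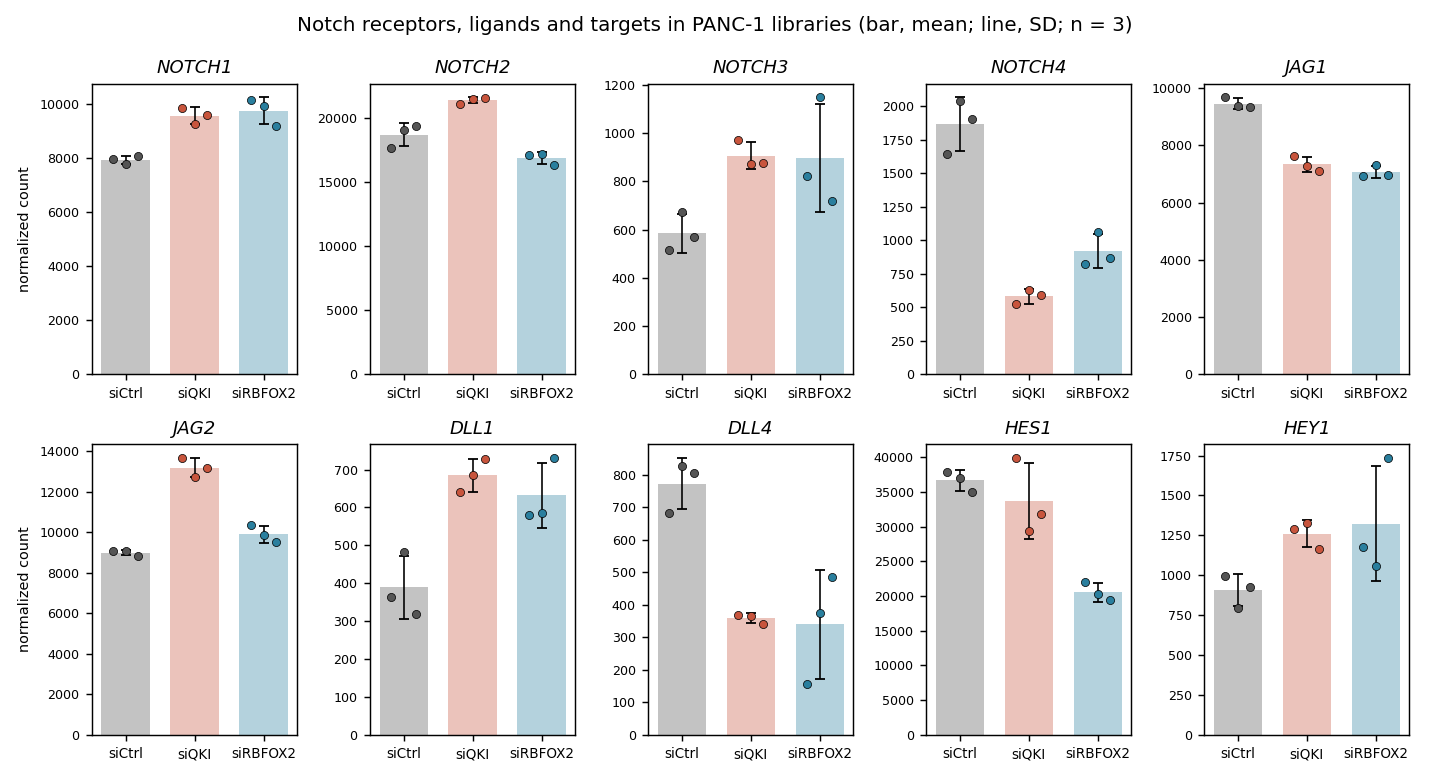
Normalized counts of the 10 Notch genes in the 9 PANC-1 libraries, 1 panel per gene with its own linear axis from 0; points are libraries, bars are means and lines are the SD of 3 libraries. NOTCH4 is far lower in both knockdowns, at 521 to 631 with siQKI and 821 to 1061 with siRBFOX2 against 1647 to 2041 in siCtrl, and HES1 is lower in every siRBFOX2 library.

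With siQKI, 9 of the 10 genes passed an adjusted p of 0.05, 6 of them higher and 3 lower than in siCtrl. Of all 22544 genes tested, 33.0% passed (14.9% higher and 18.1% lower), and 40.9% did so among genes with a mean of at least 50, which all 10 Notch genes have. The siQKI and siCtrl libraries did not overlap for 9 of the 10 genes, beside 44.7% of all genes tested. The median absolute log2 fold change was 0.52 over the 10 genes and 0.29 over all genes.

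With siRBFOX2, all 10 genes passed, 5 of them higher and 5 lower, where 26.5% of all genes passed (12.0% higher and 14.5% lower) and 33.0% of genes with a mean of at least 50. The libraries of both groups did not overlap for any of the 10 genes, beside 37.9% of all genes tested. The median absolute log2 fold change was 0.56 over the 10 genes and 0.25 over all genes. Several of these calls lay near the threshold, and 7 to 9 genes passed when a PANC-1 library was left out. Both knockdowns were set against 1 set of siCtrl libraries, and their values below are given side by side for that reason.

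The largest change among receptors was that of NOTCH4, a receptor known mainly from endothelium. It was at 1647, 2041 and 1909 normalized counts in siCtrl, at 521, 631 and 589 in siQKI and at 821, 1061 and 869.7 in siRBFOX2. All 6 knockdown libraries lay below all siCtrl libraries, and the siQKI libraries lay below the siRBFOX2 libraries. NOTCH4 fell 3.21-fold with siQKI (log2 fold change -1.68 ± 0.13 (SE), adjusted p = 1.71e-07) and 2.04-fold with siRBFOX2 (-1.03 ± 0.13, adjusted p = 4.14e-05). NOTCH4 lies on chr6:32194843-32224067 (hg38, minus strand) and shares 98 exonic bases with GPSM3 on the same strand. GPSM3 was at 2189.8 ± 37.8 in siCtrl, 1525 ± 152 in siQKI and 1263 ± 69.7 in siRBFOX2 (SD, n = 3), with log2 fold changes of -0.53 ± 0.09 with siQKI (adjusted p = 0.000457) and -0.79 ± 0.09 with siRBFOX2 (adjusted p = 1.89e-05). Of the endothelial markers, TIE1 moved the same way as NOTCH4, from 365 to 644 normalized counts in siCtrl to 209.8 to 304 in siQKI and 97.8 to 199 in siRBFOX2. KDR moved the other way, from 0 in every siCtrl library to 17.6 to 71.5 in siRBFOX2 (adjusted p = 0.0144), and was at 0 to 30.8 in siQKI. VWF was at 19.0 to 21.1 in siCtrl, 1.05 to 4.36 in siQKI and 5.26 to 44.6 in siRBFOX2. It was lower in every siQKI library but did not pass with either siRNA (adjusted p = 0.0537 and 0.945). PECAM1, CDH5 and TEK were too low to be tested. What part shared bases or these markers had in the NOTCH4 result was not tested.

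NOTCH1 (chr9:136494433-136546048, minus strand), the receptor best known from T cell leukemia and epithelial differentiation, was at 7948, 7763 and 8077 in siCtrl. It was at 9857, 9251 and 9592 in siQKI and at 10132, 9908 and 9184 in siRBFOX2. Every knockdown library lay above every siCtrl library, and the rise was small, 1.21-fold with siQKI (adjusted p = 0.000754) and 1.23-fold with siRBFOX2 (adjusted p = 0.00055).

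NOTCH3 (chr19:15159038-15200995, minus strand), a receptor prominent in vascular mural cells, was at 514, 674 and 569 in siCtrl, at 974, 871 and 878 in siQKI and at 823, 1149 and 719.7 in siRBFOX2. The knockdown libraries all lay above the siCtrl libraries, with a wider spread in siRBFOX2. NOTCH3 rose 1.56-fold with siQKI (log2 fold change 0.64 ± 0.17, adjusted p = 0.00784) and 1.51-fold with siRBFOX2 (0.59 ± 0.17, adjusted p = 0.0153). The siRBFOX2 call was lost without siRBFOX2 replicate 2 (0.40, adjusted p = 0.0801) and without siCtrl replicate 1 (0.51, adjusted p = 0.0624). PDGFRB, a mural cell marker, was also higher in siQKI, at 599 to 686 against 183 to 297 in siCtrl. In siRBFOX2 it was at 265 to 639, which overlaps siCtrl. RGS5, a pericyte marker, was at 223 to 368 in siCtrl, 299 to 490 in siQKI and 383 to 528 in siRBFOX2. The part of these markers in the result was not tested.

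NOTCH2 (chr1:119911553-120069662, minus strand), the receptor with the most RNA here, moved in opposite directions. It was at 17646, 19056 and 19345 in siCtrl, at 21093, 21445 and 21537 in siQKI and at 17120.1, 17197 and 16338 in siRBFOX2. The siQKI libraries lay above and the siRBFOX2 libraries below all siCtrl libraries. The rise with siQKI was 1.14-fold (log2 fold change 0.19 ± 0.04, adjusted p = 0.00331). The fall with siRBFOX2 was 1.11-fold (-0.15 ± 0.04, adjusted p = 0.0253), and it was lost in 6 of 17 alternatives, among them the upper-quartile rescaling (adjusted p = 0.0679) and the fits without siCtrl replicate 2 or 3 or siRBFOX2 replicate 3 (adjusted p = 0.0899, 0.107 and 0.0884). The genome holds near-identical partial copies of NOTCH2, whose reads may be split between entries. NOTCH2NLA, the copy with the highest values, was at 5614 ± 408 in siCtrl, 4757 ± 255 in siQKI and 4585 ± 619.5 in siRBFOX2 (SD, n = 3), so the NOTCH2 values are uncertain by what was assigned to its copies.

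Among ligands, DLL4, a Delta-like ligand known from sprouting vessels, fell in both knockdowns. It was at 682, 828 and 806 in siCtrl, at 367, 366 and 341 in siQKI and at 158, 375 and 486 in siRBFOX2. No knockdown library reached the siCtrl range, and the siRBFOX2 libraries spread more widely than the others. DLL4 (chr15:40929338-40939073, plus strand) fell 2.15-fold with siQKI (log2 fold change -1.10 ± 0.30, adjusted p = 0.0101) and 2.50-fold with siRBFOX2 (-1.32 ± 0.30, adjusted p = 0.00402). Without siRBFOX2 replicate 1, the library at 158, the second value was -0.85 and still passed. Both calls were lost without a mean-variance trend (adjusted p = 0.0756 and 0.0532).

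DLL1, a Delta-like ligand of the somite and of many progenitors, moved the other way. It was at 365, 482 and 319.9 in siCtrl, at 641, 686 and 727 in siQKI and at 579, 586 and 729.9 in siRBFOX2, with no overlap between either knockdown and siCtrl. DLL1 (chr6:170282206-170291078, minus strand) rose 1.78-fold with siQKI (log2 fold change 0.83 ± 0.17, adjusted p = 0.00152) and 1.64-fold with siRBFOX2 (0.71 ± 0.17, adjusted p = 0.00642).

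JAG1, the ligand mutated in Alagille syndrome, was at 9674, 9373 and 9336 in siCtrl, at 7627, 7278 and 7100.4 in siQKI and at 6919.5, 7326 and 6964 in siRBFOX2. The knockdown libraries lay below all siCtrl libraries and overlapped with each other. JAG1 (chr20:10637684-10673999, minus strand) fell 1.29-fold with siQKI (log2 fold change -0.37 ± 0.05, adjusted p = 4.16e-05) and 1.34-fold with siRBFOX2 (-0.42 ± 0.05, adjusted p = 2.01e-05). An antisense RNA shares 79 of its exonic bases, and whether the counting used strand is not given in the sources used here.

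JAG2, its close relative, rose with siQKI. It was at 9095, 9054 and 8833 in siCtrl, at 13651, 12719 and 13189 in siQKI and at 10338, 9851 and 9501 in siRBFOX2. The 3 groups did not overlap, with siQKI far above the others. JAG2 (chr14:105140995-105168824, minus strand) rose 1.47-fold with siQKI (log2 fold change 0.55 ± 0.05, adjusted p = 5.58e-07). With siRBFOX2 the change was 1.10-fold (0.14 ± 0.05, adjusted p = 0.0493). This call passed in 6 of 17 alternatives, and among fits that left out a PANC-1 library it passed only without siRBFOX2 replicate 3. An annotated processed transcript on the same strand shares exonic bases with JAG2, more than are shared for NOTCH4 or JAG1. The part of these shared bases in the JAG2 values was not tested.

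**Figure D2:**
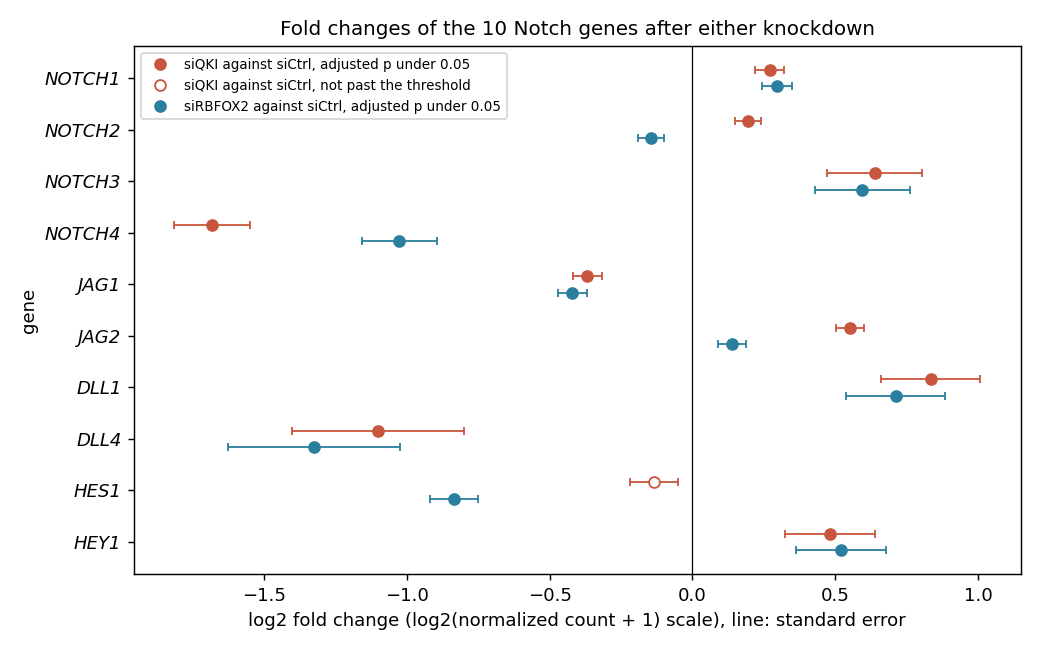
Log2 fold changes of the 10 Notch genes against siCtrl, on the log2(normalized count + 1) scale; points are estimates, lines are standard errors and the open point did not pass an adjusted p of 0.05. NOTCH4 and DLL4 lie near or beyond -1 in both knockdowns, NOTCH2 lies on opposite sides of 0, and HES1 lies at -0.14 with siQKI and at -0.83 with siRBFOX2.

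HES1 (chr3:194136145-194138732, plus strand), the classical Notch target, was at 37907, 37025 and 35033 in siCtrl. It was at 39833, 29321 and 31791 in siQKI and at 22058, 20280.2 and 19363 in siRBFOX2. The siRBFOX2 libraries lay below all others, whereas the siQKI libraries lay on both sides of the siCtrl libraries. HES1 fell 1.78-fold with siRBFOX2 (log2 fold change -0.83 ± 0.08, adjusted p = 4.04e-06) and did not pass the threshold with siQKI (-0.14 ± 0.08, adjusted p = 0.255). The siQKI value lay between -0.26 and -0.04 over the 17 alternatives, with adjusted p up to 0.76 (limma). It passed in 1 of them, without siQKI replicate 1, at 39833 (-0.26, adjusted p = 0.00398).

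HEY1, the other target, was at 997, 798 and 925 in siCtrl, at 1289.7, 1327 and 1167 in siQKI and at 1178, 1059.5 and 1733 in siRBFOX2. The knockdown libraries lay above all siCtrl libraries. HEY1 rose 1.40-fold with siQKI (log2 fold change 0.48 ± 0.16, adjusted p = 0.0283) and 1.43-fold with siRBFOX2 (0.52 ± 0.16, adjusted p = 0.0233). Without siRBFOX2 replicate 3, the library at 1733, the second value was 0.31 and did not pass (adjusted p = 0.111). The siQKI call was lost without siCtrl replicate 2 (adjusted p = 0.111), siCtrl replicate 3 (0.0591), siQKI replicate 1 (0.074) or siQKI replicate 2 (0.0907), and the siRBFOX2 call without siCtrl replicate 2 (0.0946) or siCtrl replicate 3 (0.0526).

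The promoters of 2 target genes that hold the RBPJ core TGGGAA are shown, those of HES1, which fell with siRBFOX2, and HEYL, which rose. HEYL, a HEY family member, was at 771, 814 and 691 in siCtrl, at 1113, 734 and 1023 in siQKI and at 1503, 1405 and 1145 in siRBFOX2. It rose 1.77-fold with siRBFOX2 (log2 fold change 0.83 ± 0.16, adjusted p = 0.00104) and did not pass with siQKI (0.32 ± 0.16, adjusted p = 0.142). The sequences are RefSeq promoters on GRCh38.p14, from 250 bases before to 50 after the annotated start and 5′ to 3′ on the strand of the gene, with the core or its reverse complement TTCCCA in capitals. The HES1 window is chr3:194135898-194136197 (plus strand) and the HEYL window is chr1:39639594-39639893 (minus strand).
HES1 promoter: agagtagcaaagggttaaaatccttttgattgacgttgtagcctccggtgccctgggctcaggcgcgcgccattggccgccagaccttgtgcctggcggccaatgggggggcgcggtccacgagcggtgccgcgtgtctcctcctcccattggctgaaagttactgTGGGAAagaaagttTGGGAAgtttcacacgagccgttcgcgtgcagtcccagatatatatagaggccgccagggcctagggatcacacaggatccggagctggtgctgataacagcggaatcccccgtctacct
HEYL promoter: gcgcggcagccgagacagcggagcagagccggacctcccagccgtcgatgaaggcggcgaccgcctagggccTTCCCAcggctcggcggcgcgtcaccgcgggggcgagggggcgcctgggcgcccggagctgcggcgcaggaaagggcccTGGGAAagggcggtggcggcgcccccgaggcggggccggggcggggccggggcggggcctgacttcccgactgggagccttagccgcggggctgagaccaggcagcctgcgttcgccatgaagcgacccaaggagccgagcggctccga

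The HES1 window holds the core at -84 and -70 from the start, both on the strand of the gene, and the HEYL window holds it at -99 and its reverse complement at -178. On either strand, 24% of the 35116 RefSeq promoters hold the core and 3.8% hold it 2 or more times. Of the 10 Notch genes, 8 had a promoter sequence, and among these only that of HES1 held the core. DLL1 and HEY1 had no promoter sequence here, so whether theirs hold the core was not searched. Of the other HES and HEY genes, 4 of 7 held it: HES4, HES5, HEY2 and HEYL. HES4 was at 6660 ± 727 in siCtrl and 6330 ± 553 in siRBFOX2 (SD, n = 3). Whether the core had a part in any of these values was not tested. A match describes letters in this window and not a bound site.

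Whether the knockdowns differ was tested directly by siQKI against siRBFOX2. In this comparison 4 of the 10 genes passed, 3 higher and 1 lower in siQKI, where 21.5% of all genes passed (9.93% higher and 11.6% lower) and 26.7% of genes with a mean of at least 50. NOTCH2 was 1.27-fold higher in siQKI (adjusted p = 5.89e-05), JAG2 1.33-fold higher (adjusted p = 2.02e-05) and HES1 1.62-fold higher (adjusted p = 2.53e-05). NOTCH4 was 1.58-fold lower in siQKI (adjusted p = 0.00205). The same 4 genes were those whose siQKI and siRBFOX2 libraries did not overlap, beside 35.2% of all genes tested. For the other 6 genes the log2 difference, siQKI minus siRBFOX2, was -0.03 ± 0.05 for NOTCH1, 0.04 ± 0.17 for NOTCH3, 0.05 ± 0.05 for JAG1, 0.12 ± 0.17 for DLL1, 0.22 ± 0.30 for DLL4 and -0.04 ± 0.16 for HEY1 (SE). The standard errors of DLL1, DLL4, NOTCH3 and HEY1 were 0.16 to 0.30. A difference has to be well above its standard error to pass, so differences of this size and somewhat larger could be missed.

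The rest of the pathway was described by 58 further genes in 10 groups by role, of which 57 were found and 55 had a mean of at least 10. Where a gene is named for the highest values of its group, these are normalized counts not divided by transcript length. In rescaled values per kb in PANC-1 siCtrl, RFNG (17.3) stood above POFUT1 (16.3) and ITCH (8.69) above AAK1 (4.91). HES7 (25.6 ± 1.17) and HES6 (24.8 ± 0.94) lay within 1 SD of each other. With siQKI, 17 rose, 8 fell and 30 did not pass, and the median log2 fold change was 0.11 (0.03 over all genes). With siRBFOX2, 10 rose, 11 fell and 34 did not pass, with a median of -0.00 (0.01 over all genes). The 25 of 55 and 21 of 55 genes that passed stand beside 33.0% and 26.5% of all genes tested, and 40.9% and 33.0% of genes with a mean of at least 50, so these counts lay near the background, and the counts by role that follow are descriptions of small groups. The splits into higher and lower moved with the scaling: after upper-quartile rescaling 23 rose and 5 fell with siQKI, and 12 rose and 7 fell with siRBFOX2, while the share of all called genes that were higher with siQKI went from 45.2% to 58.0%. Without siRBFOX2 replicate 2, 12 genes passed with siRBFOX2, and without siCtrl replicate 2 or siCtrl replicate 3, 13 genes passed. Of the 10 receptors, ligands and targets, 6 were higher and 3 lower with siQKI under that rescaling, and 5 higher and 4 lower with siRBFOX2.

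**Figure D3:**
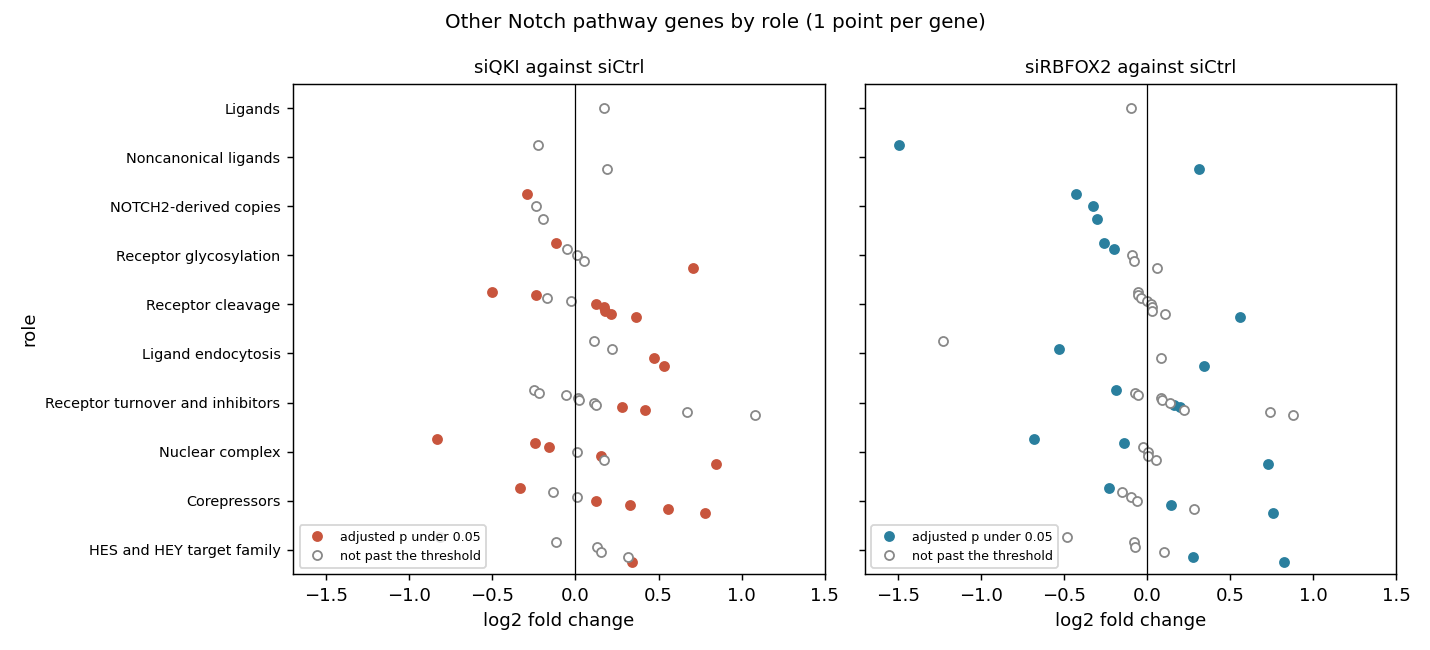
Log2 fold changes of 55 further Notch pathway genes by role, siQKI against siCtrl on the left and siRBFOX2 against siCtrl on the right; each point is a gene, filled where its adjusted p is under 0.05. In total 25 genes passed with siQKI and 21 with siRBFOX2, beside 33.0% and 26.5% of all genes tested, and most points lie within 0.5 of 0.

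In the nuclear complex, RBPJ, the DNA-binding protein on which Notch transcription rests, rose in both knockdowns. It was at 2662, 2636 and 2648 in siCtrl, at 4724, 4789 and 4797 in siQKI and at 4415, 4437 and 4330.2 in siRBFOX2. The groups did not overlap and the libraries of each group were close together. RBPJ rose 1.80-fold with siQKI (log2 fold change 0.85 ± 0.06, adjusted p = 3.38e-08) and 1.66-fold with siRBFOX2 (0.73 ± 0.06, adjusted p = 3.43e-07). MAML2, a Mastermind coactivator, fell in both, from 1379, 1262 and 1284 to 708, 767 and 727 with siQKI and to 840.2, 819 and 792 with siRBFOX2. Its fall was 1.78-fold (adjusted p = 2.44e-05) and 1.60-fold (adjusted p = 0.00026). SNW1, a cofactor of RBPJ and the member of this group with the highest values, was 1.12-fold and 1.10-fold lower (adjusted p = 0.0099 and 0.0281). Of the 7 genes of this group, 2 rose and 3 fell with siQKI, and 1 rose and 2 fell with siRBFOX2.

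Of the 7 corepressors, 4 rose and 1 fell with siQKI, and 2 rose and 1 fell with siRBFOX2. TLE4, a Groucho-type corepressor that binds HES proteins, was at 919, 828 and 813 in siCtrl, at 1407, 1364 and 1031 in siQKI and at 1406, 1621 and 1313 in siRBFOX2. It rose 1.47-fold (adjusted p = 0.00378) and 1.69-fold (adjusted p = 0.00053). Its relative TLE2 was at 672, 398 and 553 in siCtrl and at 1111, 830.2 and 810.5 in siQKI, a 1.71-fold rise (adjusted p = 0.00939), and at 605, 836 and 531 in siRBFOX2, which did not pass (adjusted p = 0.366).

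Receptor glycosylation tunes which ligands a receptor answers to. LFNG, the Lunatic fringe glycosyltransferase, was at 2074, 2125 and 2107 in siCtrl, at 3599, 3503 and 3225 in siQKI and at 1944, 1622 and 1727 in siRBFOX2. The siQKI libraries lay above and the siRBFOX2 libraries below all siCtrl libraries. LFNG rose 1.64-fold with siQKI (adjusted p = 9.45e-06) and fell 1.19-fold with siRBFOX2 (adjusted p = 0.0325), and it was 1.95-fold higher in siQKI than in siRBFOX2 (adjusted p = 1.02e-06). POFUT1, which adds O-fucose to the receptor and had the highest values of the group, was 1.08-fold lower with siQKI (adjusted p = 0.0253) and did not pass with siRBFOX2 (adjusted p = 0.0997). Of the 5 genes, 1 rose and 1 fell with siQKI, and 2 fell with siRBFOX2.

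**Figure D4:**
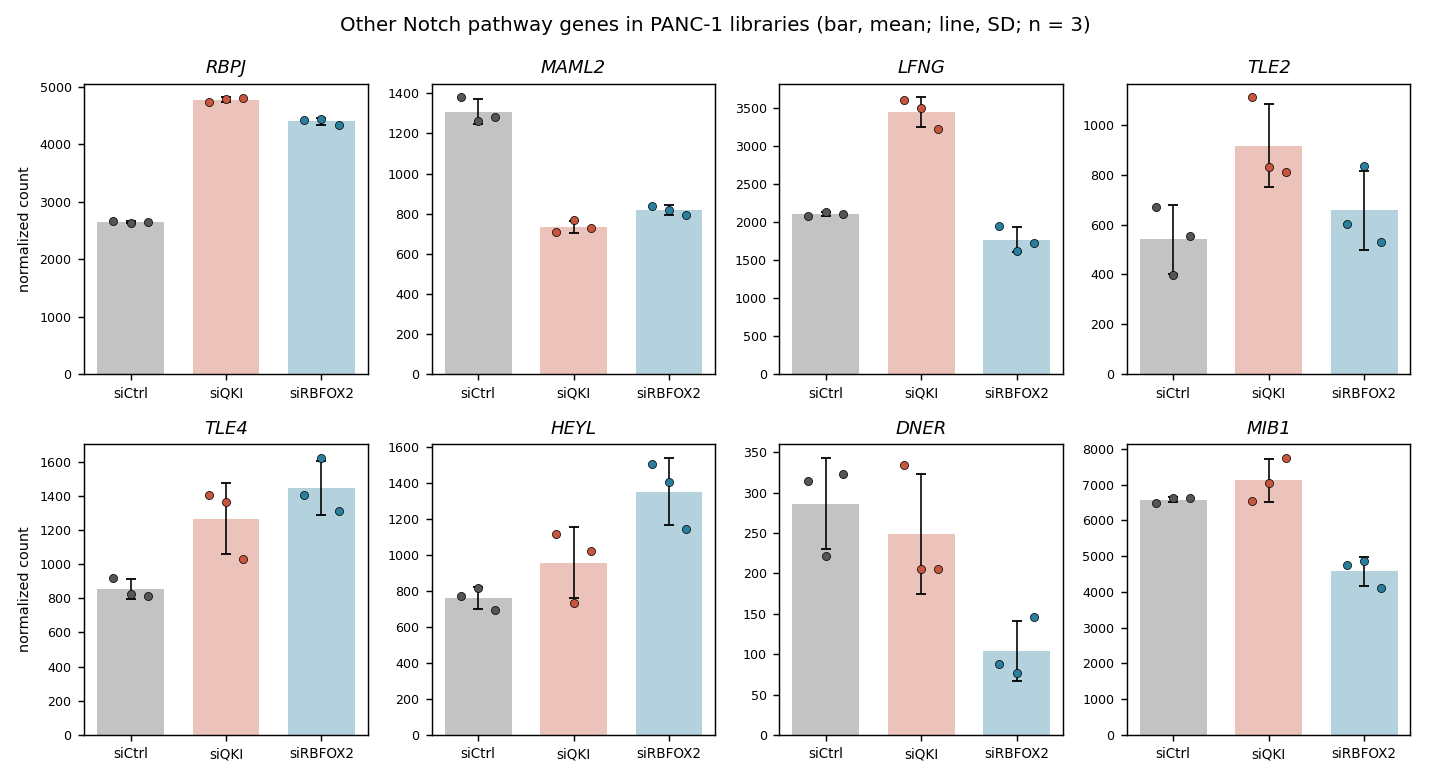
Normalized counts of 8 further Notch pathway genes in the 9 PANC-1 libraries, 1 panel per gene with its own linear axis from 0; points are libraries, bars are means and lines are the SD of 3 libraries. RBPJ is at 2636 to 2662 in siCtrl and at 4330.2 or above in every knockdown library, and LFNG is highest in siQKI.

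Of the 9 genes of receptor cleavage, 5 rose and 2 fell with siQKI and 1 rose with siRBFOX2. APH1A, a gamma-secretase subunit with the highest values of the group, fell 1.18-fold with siQKI (adjusted p = 0.000276) and was at 125413 ± 5800.1 in siRBFOX2 against 125462 ± 1804 in siCtrl (SD, n = 3). Of 4 genes of ligand endocytosis, 2 rose with siQKI, and 1 rose and 1 fell with siRBFOX2. MIB1, the ubiquitin ligase that pulls ligands into the cell, was at 6498, 6621 and 6633 in siCtrl and at 4763, 4862 and 4117 in siRBFOX2, 1.44-fold lower (adjusted p = 7.41e-05), and did not pass with siQKI (adjusted p = 0.288). Of 11 genes of receptor turnover and inhibition, 2 rose with siQKI, and 2 rose and 1 fell with siRBFOX2. AAK1, a kinase of endocytosis with the highest values there, rose 1.15-fold with siRBFOX2 (adjusted p = 0.0173) and did not pass with siQKI (adjusted p = 0.157).

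Of the other HES and HEY genes, 6 had a mean of at least 10, and 1 rose with siQKI and 2 with siRBFOX2. HES6, which had the highest values, rose 1.27-fold (adjusted p = 0.00069) and 1.21-fold (adjusted p = 0.00444). DLL3, a Delta-like protein that does not activate receptors on other cells, was at 13612 ± 1244 in siCtrl, 15351 ± 1334 in siQKI and 12736 ± 1475 in siRBFOX2 (SD, n = 3) and did not pass in either comparison (adjusted p = 0.138 and 0.452). Per kb it stood at 19.2 ± 1.67 rescaled values in PANC-1 siCtrl, above each of the 8 receptors and ligands described here. Of 2 noncanonical ligands tested, DNER fell 2.82-fold with siRBFOX2, from 315, 222 and 323 to 88.3, 76.5 and 146 (adjusted p = 0.00224), and DLK2, the higher of these, rose 1.24-fold (adjusted p = 0.0098), while neither passed with siQKI. Of 3 NOTCH2-derived copies, 1 fell with siQKI and 3 fell with siRBFOX2, NOTCH2NLA by -0.30 ± 0.09 on the log2 scale (adjusted p = 0.0204).

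The transcripts were searched for the core of the QKI response element, ACTAAC, and for the RBFOX motif, TGCATG, on the sense strand of 1 representative GENCODE v29 transcript per gene. These transcripts are spliced, so introns, where the paper also mapped these motifs beside regulated exons, were not searched. In the last 1000 bases, 9.97% of 17796 transcripts held ACTAAC and 24.7% held TGCATG. None of the 10 Notch genes held ACTAAC there, and NOTCH2 alone held it elsewhere, once, in its 3′ UTR. TGCATG lay in the last 1000 bases of NOTCH1, NOTCH3, HES1 and HEY1, and in HES1 it occurred 2 times in the coding part. With siRBFOX2, HES1 fell and the other genes with it there rose, and a link to the motif was not tested. Over the whole transcript, NOTCH1 and NOTCH2 each held TGCATG 6 times, JAG1 3 times, NOTCH4, JAG2 and HES1 2 times, NOTCH3 and HEY1 1 time, and DLL1 and DLL4 held neither motif. The 3′ UTR sites of the NOTCH genes and the sites in HES1 are shown with the motif in capitals and 12 bases on either side, on GRCh38: NOTCH2 chr1:119913762-119913791 and chr1:119913074-119913103, NOTCH1 chr9:136495227-136495256 and NOTCH3 chr19:15159107-15159136 on the minus strand, and HES1 chr3:194137727-194137756 and chr3:194137814-194137843 on the plus strand.
NOTCH2 QKI motif: ttccctttggcaACTAACgtagaaactcaa
NOTCH2 RBFOX motif: ggagaacctatcTGCATGgacctctgtgga
NOTCH1 RBFOX motif: atgtaggcatcaTGCATGtcaaacatgaga
NOTCH3 RBFOX motif: tgatcatggttcTGCATGaatttcactttt
HES1 RBFOX motif 1: ggcttcagcgagTGCATGaacgaggtgacc
HES1 RBFOX motif 2: cacctggccaacTGCATGacccagatcaat

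HPAF-II cells were set beside PANC-1 cells under siCtrl. The tables of the lines were normalized separately, so values were rescaled to a total of 1000000 per library and no test was run. A difference of at least 2-fold was found for 6 of the 10 genes, all lower in HPAF-II, where 52.4% of 24673 genes differed as much (27.2% higher and 25.2% lower in HPAF-II). The libraries of the lines did not overlap for any of the 10 genes, beside 63.7% of all genes compared. The median log2 ratio was -1.56 over the 10 genes and 0.08 over all genes.

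Among receptors, NOTCH4 was at 4.86, 5.86 and 5.53 rescaled values in PANC-1 and at 0.459, 0.136 and 0.291 in HPAF-II, 18.4-fold lower. NOTCH3 was at 1.52, 1.93 and 1.65 against 0.463, 0.303 and 0.697, 3.49-fold lower. For both genes the HPAF-II values were low, and the ratio depended on the pseudocount. With a pseudocount of 1, the log2 ratio of NOTCH4 went from -4.15 to -2.31. That of NOTCH3 went from -1.78 to -0.86, under 2-fold. NOTCH2 was at 52.1, 54.7 and 56.0 against 15.7, 19.2 and 16.0, 3.20-fold lower. NOTCH1 was the exception, at 23.5, 22.3 and 23.4 against 32.2, 27.8 and 32.7, 1.34-fold higher in HPAF-II, so that it was the receptor with the most RNA per kb there (3.32 ± 0.29 against 1.49 ± 0.17 for NOTCH2; SD, n = 3).

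DLL1 was at 1.08, 1.38 and 0.927 in PANC-1 and was listed at 0 in 2 HPAF-II libraries and at 0.00798 in the third, so no ratio is given. DLL4 was at 2.01, 2.38 and 2.33 against 1.45, 1.30 and 1.39, 1.63-fold lower in HPAF-II. JAG1 was at 28.6, 26.9 and 27.0 against 14.8, 20.6 and 15.8, 1.61-fold lower. JAG2 was at 26.8, 26.0 and 25.6 against 30.0, 31.3 and 51.1, 1.43-fold higher, and without HPAF-II replicate 3 its log2 ratio went from 0.52 to 0.23. Jagged and DLL4 RNA was thus present in HPAF-II, while DLL1 was at or near 0 and DLL3 was listed at 0 in all 3 HPAF-II libraries.

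HES1 was at 112, 106 and 101 in PANC-1 and at 34.5, 31.8 and 51.7 in HPAF-II, 2.71-fold lower, and it remained the highest of the 10 genes per kb (24.9 ± 6.84). HEY1 was at 2.94, 2.29 and 2.68 against 0.0353, 0.957 and 0.129, 7.05-fold lower. HEY1, which lies on chromosome 8, thus varied widely among HPAF-II libraries, and its log2 ratio of -2.79 became -4.84 without HPAF-II replicate 2. HEYL was listed at 0 in all HPAF-II libraries. The levels of QKI and RBFOX2 also differed between the lines without any siRNA against them: QKI was 5.14-fold and RBFOX2 1.46-fold lower in HPAF-II. Whether these levels or the line decide the Notch values cannot be told apart.

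**Figure D5:**
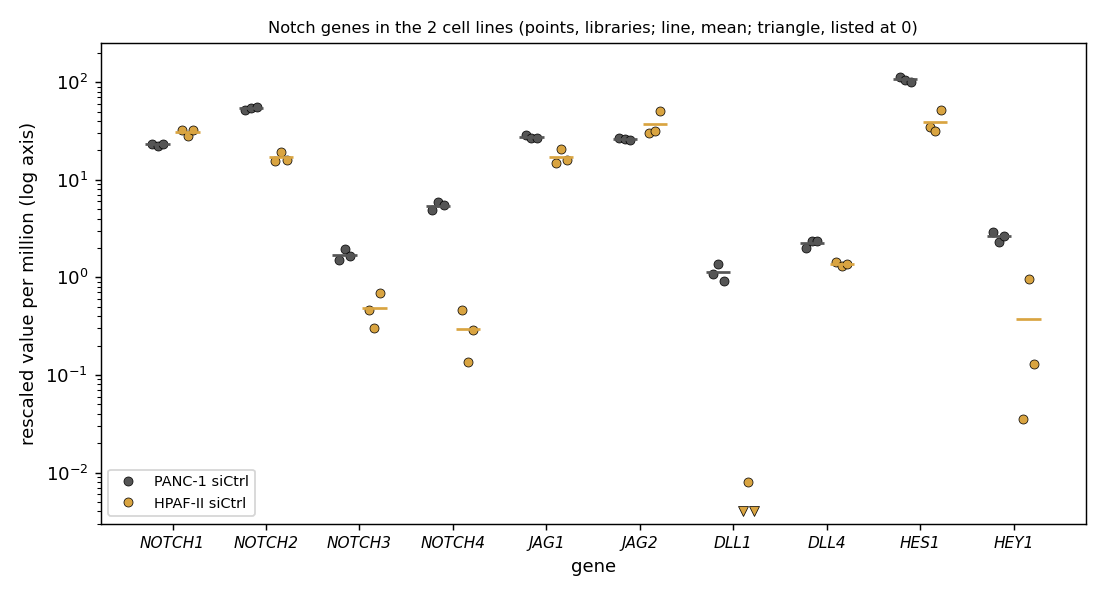
Rescaled values (total of 1000000 per library, log axis) of the 10 Notch genes in 3 PANC-1 siCtrl and 3 HPAF-II siCtrl libraries; points are libraries, lines are means and triangles mark libraries listed at 0. NOTCH2, NOTCH3, NOTCH4, DLL1, HES1 and HEY1 are at least 2-fold lower in HPAF-II, and NOTCH1 and JAG2 are slightly higher.

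Across the 9 PANC-1 libraries, the genes whose pattern was most like that of each Notch gene were taken from 15250 genes with a symbol and a mean of at least 50, by Pearson's r on the log2 scale. All these values share the 9 libraries and mostly follow the 3 groups, so they are descriptions. For NOTCH4 they were PRKCA (0.996), ZNF646 (0.990) and SH3GL1 (0.989), for JAG2 WNT6 (0.995), ELFN1 (0.994) and LGALS8 (0.994), and for JAG1 DDX54 (0.990), DOT1L (0.987) and NUDC (0.984). HES1 was most like PMEPA1 (0.985) and the immediate-early genes IER2 (0.985) and ZFP36 (0.978). NOTCH1 was most like SMPDL3B (0.982) and PLEKHH1 (0.979), NOTCH2 like TIA1, EFR3A and NNT (0.975 to 0.983) and NOTCH3 like FBXO44, HDAC5 and FAR2P1 (0.975 to 0.985). DLL1 was most like BTG2, PTGFRN and FAM86C2P (0.972 to 0.976), DLL4 like RELL1, KLF17 and CDC26 (0.950 to 0.961) and HEY1 like RNF2, FAM98A and KRBOX5 (0.945 to 0.970).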

How the data were processed

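PolyA RNA of PANC-1 and HPAF-II cells had been sequenced by the authors. Per the labels, the tools included STAR 2.7.5a and the build was hg38. The authors counted reads per gene and scaled them with DESeq2 size factors, and the deposited values (a signal, not raw counts) came in a table for 9 PANC-1 and a table for 3 HPAF-II libraries, each with 48114 genes of the FAST DB annotation. Size factors read from the steps between values were 0.877 to 1.15 and 0.81 to 1.09, and totals were 292248837 to 376192091 and 226697015 to 309720537 steps. Of values of 1 to 30 steps, 82.1% to 84.8% could be divided by 3. A step was therefore not taken as a fragment, the depth in fragments is unknown, and precision was taken from the replicates.

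PANC-1 groups were compared in a single limma 3.58.1 fit (R 4.3.3, eBayes with a mean-variance trend) of log2(normalized count + 1) over all 22544 genes with a mean of at least 10, with Benjamini-Hochberg adjustment and a threshold of 0.05. Fold changes are on that scale and are understated for low genes. The script was tested on simulated data. HPAF-II and PANC-1 siCtrl libraries were rescaled to 1000000 and described by log2 ratios with a pseudocount of 0.01, with no test, over genes with a mean of at least 10 in either line. Replicate numbers did not pair the libraries (see the closing section).

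The 10 genes and the pathway and marker lists were chosen with earlier results of these data known. Named from the pathway were genes past the threshold with a fold change of at least 1.5 in either knockdown, and the gene with the highest mean of each role group; for each of the 10 genes, the 3 genes with the highest Pearson's r were named; 2 genes that meet these rules are not reported here. Alternatives tried in PANC-1 were a pseudocount of 0.1 or 10, the filter removed or raised to 50, upper-quartile (75th percentile) rescaling, a fit of just the 2 groups at hand, a block for the replicate number, no trend, each library left out, an adjusted p of 0.01 and a fold change of at least 1.5; between lines, upper-quartile rescaling, no rescaling, a pseudocount of 1, each library left out, and folds of 1.5 and 4. Sequences came from GENCODE v29 and RefSeq (GRCh38.p14). Tables and figures were made in Python with pandas, numpy and matplotlib.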

Additional observations from a re-analysis of the deposited data

How the results depend on the processing

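Of the 30 log2 fold changes of the 10 genes in the 3 PANC-1 comparisons, 18 kept their direction and their side of the threshold in all 17 alternatives, 7 lost their call in at least 1, 1 gained it and 4 changed sign. The cause was not tested. All 4 that changed sign were differences between siQKI and siRBFOX2 that did not pass the threshold: NOTCH1 became 0.0052 after upper-quartile rescaling, and with a library left out NOTCH1 ranged from -0.0672 to 0.0037, NOTCH3 from -0.1015 to 0.2353, DLL4 from -0.2539 to 0.5551 and HEY1 from -0.1818 to 0.1729, with the far ends each set by an siRBFOX2 library. With a fold change of at least 1.5, the number of the 10 genes past the threshold fell from 9 to 4 (siQKI), from 10 to 5 (siRBFOX2) and from 4 to 2 (siQKI against siRBFOX2), and that of other pathway genes from 25 to 4, from 21 to 5 and from 21 to 5. Without a mean-variance trend, 5 of the 10 genes passed with siRBFOX2, and 16 and 10 other pathway genes passed with siQKI and siRBFOX2. At an adjusted p of 0.01, 6 of the 10 genes and 11 other pathway genes passed with siRBFOX2. With a library left out, the counts were 8 to 9, 7 to 9 and 4 to 4 of the 10 genes, and 19 to 26, 12 to 21 and 18 to 22 other pathway genes. Between the lines, 6 genes differed by at least 2-fold under other rescalings and without any library. With a pseudocount of 1 there were 5, NOTCH3 being lost, while 8 reached 1.5-fold and 3 reached 4-fold in the main setting.

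Libraries with the same replicate number did not deviate together (r from -0.0539 to 0.0417, and from -0.0649 to 0.0742 for different numbers), so the numbers were not taken as pairs. With a replicate block, 9, 10 and 4 of the 10 genes and 25, 20 and 21 other pathway genes passed. A planned count test on whole steps was not run, since a step is not a fragment. Replicates limit what could be seen: standard errors were 0.13 to 0.30 for NOTCH3, NOTCH4, DLL1, DLL4 and HEY1. For these genes, log2 changes of this size and somewhat larger could be missed.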

Other observations

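Of 56 other pathway genes compared, 22 lay at least 2-fold below and 7 at least 2-fold above PANC-1 siCtrl cells in HPAF-II, beside 25.2% and 27.2% of all genes, with a median log2 ratio of -0.34 beside 0.08 over all genes. Those at least 2-fold above included RBPJ and MAML2 of the nuclear complex. The others were HES5 and, in receptor turnover and inhibition, DTX2, DTX3L, DTX4 and FBXW7. RBPJ was at 7.86, 7.57 and 7.67 rescaled values in PANC-1 and at 28.2, 30.7 and 20.2 in HPAF-II. MAML2 was at 4.07, 3.63 and 3.72 against 31.9, 35.1 and 16.9. HES6 was at 35.1, 35.4 and 37.6 against 2.29, 1.58 and 10.9. DTX4, a Deltex ubiquitin ligase that was chosen after its values were seen, was at 0.158, 0.169 and 0.0728 rescaled values in PANC-1 and at 73.6, 70.0 and 61.4 in HPAF-II. In PANC-1 it was at 25.2 to 59.0 normalized counts in siCtrl, 78.6 to 113 in siQKI and 46.5 to 98.9 in siRBFOX2, and it did not pass the threshold in either comparison (adjusted p = 0.0985 and 0.294, limma).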
